A study of Mus musculus with 12 samples.

Results

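Lungs of mice that all received simvastatin were compared with and without radiation, on 6 of the 12 Affymetrix mouse arrays of the series. The arrays were chosen by their titles. The combined group holds 3 arrays of wild-type mice given 10 mg/kg simvastatin by intraperitoneal injection 3 times a week and a single dose of 25 Gy, with lungs taken 6 weeks after the dose. The simvastatin group holds 3 arrays of wild-type mice given the same injections and no radiation. Both groups share the drug, the wild-type genotype and an age of 8 to 12 weeks, so by the titles and treatment labels they differ in radiation alone. The description label of all 12 samples names a control animal, against the titles, which were followed here. The strain and sex are not in the labels used here, and nothing in them says that the arrays come from separate mice, so a p-value reflects only how these samples spread, which may be technical. The other 6 arrays were 3 of untreated control lung and 3 of lung irradiated without the drug. They entered the estimate of the spread and the test of whether the radiation effect differed with simvastatin. They also entered the filter on low values, the choice of probe sets and the means over all 12 arrays. Every value is a log2 intensity, so a difference of 1 is a doubling.

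Ionising radiation breaks DNA, and the break signal stabilises the transcription factor p53. p53 then raises genes that stop the cell cycle (Cdkn1a), limit p53 itself (Mdm2, Ccng1) or promote cell death (Eda2r, Phlda3), and in irradiated lung this early response is followed weeks later by vascular leak, inflammation and scarring. Simvastatin is a statin, a drug that blocks cholesterol synthesis, and cells short of sterol raise the genes of that pathway. Statins also act on the endothelial barrier, which depends in part on sphingosine 1-phosphate (S1P) and its receptors.

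The promoters of 3 of these p53 target genes are shown because they are among the check genes of radiation used below. The p53 decamer, the unit that is repeated in a p53 response element, was searched in the 250 bases before each gene start. It reads the same on both strands, and matches may overlap. Sequences are from RefSeq on build GRCm38.p6, written 5′ to 3′ on the gene's strand with each match in capitals. The stretch printed for Cdkn1a is chr17:29090871-29090972 on the plus strand, and those for Ccng1 and Mdm2 are chr11:40755427-40755506 and chr10:117710900-117710979 on the minus strand.
Cdkn1a: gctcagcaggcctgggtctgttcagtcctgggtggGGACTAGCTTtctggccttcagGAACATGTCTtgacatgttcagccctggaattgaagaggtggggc
Ccng1: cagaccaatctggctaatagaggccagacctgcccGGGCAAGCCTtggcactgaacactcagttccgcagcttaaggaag
Mdm2: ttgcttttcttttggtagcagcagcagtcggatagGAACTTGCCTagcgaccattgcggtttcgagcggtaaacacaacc
The Cdkn1a stretch holds 2 matches separated by 12 bases, the first starting 73 bases before the gene start. The other 2 stretches hold 1 match each. Of the 31 p53 target genes measured, 24 had a promoter in the table and 8 of those (33.3%) held a match, against 8.2% of 27025 genes with a promoter. A match is a description of the letters and not a binding site.

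The arrays did not fall apart along their labels. The array labelled combined 3 was nearly identical to simvastatin 1 and simvastatin 3. Across 10342 bright probe sets (mean over 9), pairs inside this trio of 3 arrays had an SD of log2 differences of 0.111 to 0.118, and the other 12 pairs of the 6 arrays had 0.336 to 0.603. Simvastatin 1 and 3 share a label and were therefore counted as 1 sample, their mean, which leaves 3 combined and 2 simvastatin samples. The array labelled combined 3 was kept in its labelled group, and if it holds the same RNA as simvastatin 1 and 3, the comparison sets this RNA partly against itself.

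The p53 target genes went against the labels on 2 of the 6 arrays, if a high level is read as a mark of radiation. High levels were not confined to arrays labelled as irradiated. On the array labelled control 3, p53 target genes of cell death had a mean level of 0.448 relative to all 12 arrays, beside 0.315 to 0.371 on the radiation arrays. Those of arrest and feedback had 0.118, beside 0.256 to 0.354. Cdkn1a was also high on control 3, as given with the interaction below. Cdkn1a (Entrez gene 12575), which encodes p21, stood at 13.19 and 13.17 on combined 1 and combined 2 and at 11.18 on the array labelled combined 3. On the simvastatin side it stood at 11.09 and 11.11 on simvastatin 1 and 3 and at 13.36 on the array labelled simvastatin 2. The groups overlapped completely in range, and the array labelled simvastatin 2 had the highest value of the 6. Their means were 12.51 ± 1.16 (SD, n = 3) and 12.23 ± 1.60 (SD, n = 2), a difference of 0.28 ± 0.92 (SE) with a 95% interval of -1.79 to 2.35. The two-sided exact permutation test gave p = 0.9, where the smallest p that this design allows is 0.1. Without simvastatin 2 the difference was 1.41, and without combined 1 it was -0.06.

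Eda2r (Entrez gene 245527), a death receptor gene of the tumour necrosis factor family, showed the same layout. It read 7.67 and 7.75 on combined 1 and 2 and 8.29 on the array labelled simvastatin 2. It read 4.33 on the array labelled combined 3, 4.15 on simvastatin 1 and 4.75 on simvastatin 3. The 3 high arrays therefore carry 2 labels, and so do the 3 low ones. Ccng1, which encodes cyclin G1, was 13.54 to 13.86 on the same 3 high arrays and 12.27 to 12.28 on the others. Phlda3, an inhibitor of Akt signalling, was 10.87 to 11.02 against 8.97 to 9.36. Mdm2, the ligase that degrades p53, was 9.66 on both combined 1 and 2, 10.15 on the array labelled simvastatin 2, and 9.10 to 9.23 elsewhere. The labelled differences of these 4 genes lay between -0.19 and 0.25, each smaller than its standard error of 0.36 to 1.48. Every direction below that uses the labelled groups rests on these labels as given.

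**Figure D1:**
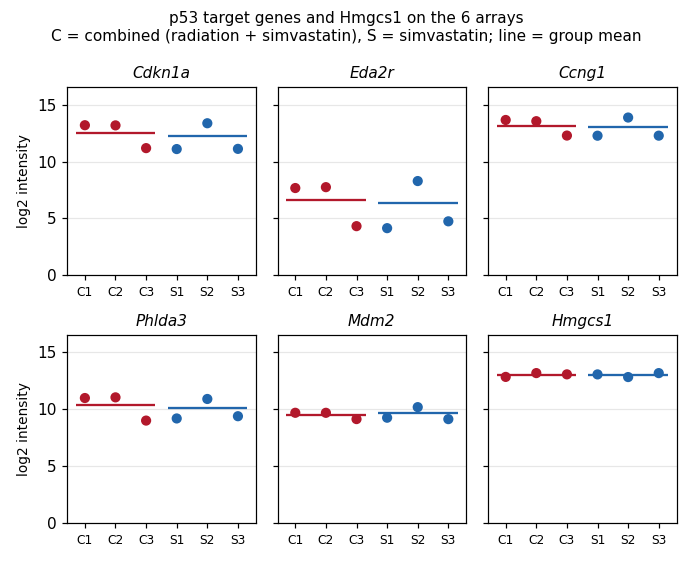
Log2 intensity (vertical axis) of 5 p53 target genes and the cholesterol synthesis gene Hmgcs1 on the 6 arrays; points are arrays, C1 to C3 the combined and S1 to S3 the simvastatin arrays, and lines are group means with S1 and S3 counted once. Cdkn1a stands at 13.17 to 13.36 on C1, C2 and S2 and at 11.09 to 11.18 on C3, S1 and S3, whereas Hmgcs1 stays between 12.80 and 13.14 on all 6.

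Lung markers were high on all 6 arrays. Sftpc, the surfactant protein of alveolar type 2 cells, was 15.64 to 15.81, and Scgb1a1, the secretoglobin of club cells, was 15.96 to 16.20. Xist, the RNA that coats the silenced X chromosome in females, was 13.64 to 14.08 and the Y-linked Eif2s3y 2.77 to 2.92, so the 6 arrays were alike in these sex-linked genes. Both groups received simvastatin, so this comparison cannot show what the drug does to its target pathway. Hmgcs1, an early enzyme of cholesterol synthesis, differed by 0.05 ± 0.16 (SE), and Sqle, the squalene epoxidase of that pathway, by 0.12 ± 0.30.

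Radiation under simvastatin was tested first with the groups as labelled. By limma, 0 of 11602 genes (0.0%) passed an adjusted p of 0.05, and the lowest adjusted p was 1.0. At an unadjusted p under 0.05 there were 153 genes (1.32%), where 580.1 would be expected with no difference at all. Of these, 146 (1.26% of the genes tested) were higher in the combined group and 7 (0.0603%) were lower. The combined and simvastatin arrays did not overlap for 581 genes that were higher (5.01%) and 543 that were lower (4.68%). The median difference over all genes was -0.005. The count of 153 became 572 without combined 3, 9 without simvastatin 2, 19 without combined 1 and 15 without combined 2.

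The 10 genes of lowest p all had higher means in the combined group, and 0 passed the adjusted threshold. Myl3 (Entrez gene 17897), a myosin light chain of heart and slow skeletal muscle, read 13.52, 13.14 and 7.94 on combined 1, 2 and 3 and 7.64, 5.95 and 7.51 on simvastatin 1, 2 and 3. The groups did not overlap, but the array labelled combined 3 lay close to simvastatin 1 and 3, and the array labelled simvastatin 2 lay lowest. The difference was 4.77 ± 1.60 (SE; 95% interval 1.18 to 8.36), with a limma adjusted p of 1.0. Mb, which encodes the oxygen store myoglobin, read 13.89, 13.87 and 12.31 against 12.17, 11.18 and 12.18, a difference of 1.67 ± 0.57. Myom2, a protein of the sarcomere M-band, differed by 1.91 ± 0.66, Des, the muscle intermediate filament desmin, by 1.05 ± 0.35, and Tpm1, a tropomyosin, by 0.82 ± 0.28. Fbp2, the fructose bisphosphatase of muscle, differed by 2.34 ± 0.75, and Hspb6, a small heat shock protein abundant in muscle, by 2.46 ± 0.82. For each of these 7 genes combined 1 and 2 were highest and the array labelled simvastatin 2 was lowest.

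Smyd2 (Entrez gene 226830), a lysine methyltransferase, had the lowest p of all genes. It read 9.63, 9.62 and 9.09 on the combined arrays and 8.94, 8.39 and 8.99 on the simvastatin arrays, which gave 0.77 ± 0.25 (SE) with an unadjusted limma p of 0.0112. Lad1, an anchoring filament protein of epithelial basement membranes, read 8.40, 9.59 and 6.50 against 6.78, 2.84 and 6.45. Its groups overlapped, since simvastatin 1 lay above the array labelled combined 3. Mzb1, a chaperone of antibody-making cells, read 9.39, 9.54 and 8.35 against 8.27, 7.04 and 8.24, a difference of 1.45 ± 0.49.

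**Figure D2:**
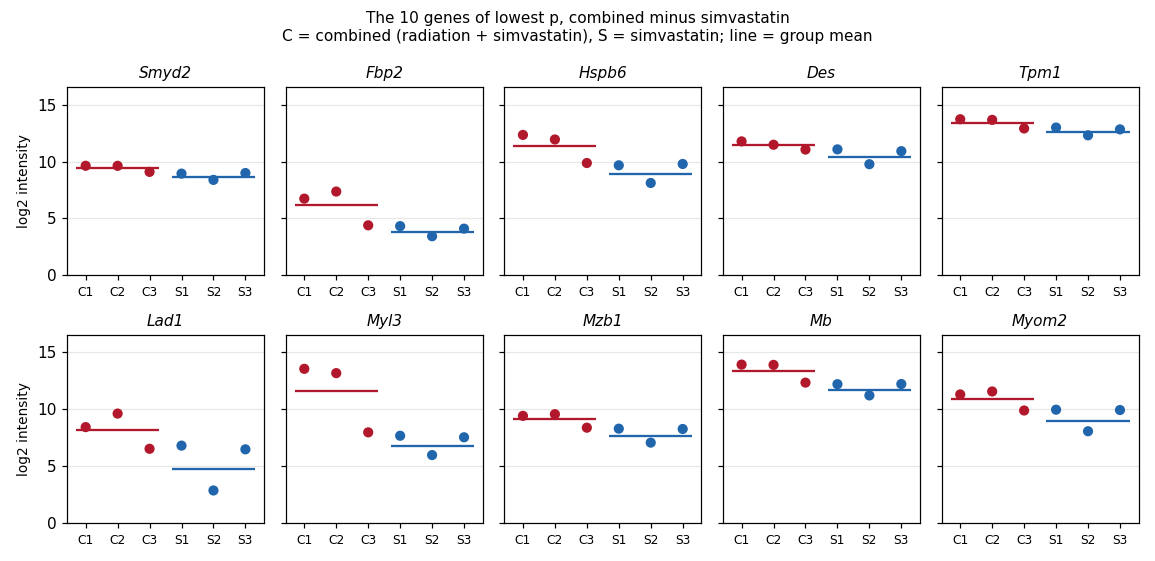
Log2 intensity of the 10 genes of lowest p between combined and simvastatin on each of the 6 arrays; points are arrays (C combined, S simvastatin) and lines are group means with S1 and S3 counted once. In each panel C1 and C2 are highest and S2 is lowest, and C3 lies close to S1 and S3, as for Myl3 at 7.94 beside 7.64 and 7.51.

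p53 target genes were counted in 2 lists, by what they do, with Phlda3 placed in the list of arrest and feedback. Of the 19 measured genes of arrest and feedback, 0 passed, 4 were above 0 (49.1% of all genes were) and the median difference was -0.12, beside -0.005 over all genes. Of the 12 measured genes of cell death, 0 passed, 7 were above 0 and the median was 0.11. The mean over both lists differed by 0.02. The arrest and feedback members of lowest p had negative differences that did not pass the test. Rrm2b, a subunit of the enzyme that makes nucleotides for DNA repair, differed by -0.33 ± 0.23 (SE), Xpc, which recognises damaged DNA, by -0.30 ± 0.25, Plk2, a stress kinase, by -0.54 ± 0.52, and Btg2, which slows proliferation, by -0.40 ± 0.44.

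The cell death members of lowest p have other known roles. Perp, which is also a desmosome protein of stratified epithelium, read 11.52, 12.77 and 10.16 on the combined arrays and 10.19, 9.38 and 10.17 on the simvastatin arrays, a difference of 1.70 ± 0.76 (SE). Ak1, an adenylate kinase abundant in muscle, read 11.14, 10.65 and 9.53 against 9.55, 9.07 and 9.56, a difference of 1.13 ± 0.50. Both were high on combined 1 and 2 and were not high on the array labelled simvastatin 2, unlike Cdkn1a and Eda2r. Pmm1, a mannose phosphate mutase, differed by 0.45 ± 0.27 and Apaf1, the core of the apoptosome, by -0.37 ± 0.31, which was 0.06 without simvastatin 2.

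Cholesterol synthesis and sterol control genes lay on both sides of 0. Of 20 measured, 10 were above 0 and 10 below, 0 passed, and the median was 0.01, which turned to -0.07 when each array was centred on its median. The mean of the list differed by 0.04. The combined arrays were not alike in this list, since 1 of the 20 members was higher on combined 1 than on combined 2. The median gap of combined 1 minus combined 2 was -0.473. Dhcr7, the last enzyme of the pathway, differed by 0.72 ± 0.39 (SE), Fdft1, squalene synthase, by 0.37 ± 0.28, Pmvk, a mevalonate pathway kinase, by 0.40 ± 0.46, and Stard4, a sterol carrier, by -0.52 ± 0.32.

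Sphingolipid enzymes and S1P receptors were lower for 18 of 27 members, with a median of -0.12 and 0 that passed. S1pr3, an S1P receptor that loosens the endothelial barrier, read 11.19, 11.24 and 11.85 on the combined arrays and 11.97, 11.93 and 11.90 on the simvastatin arrays. The groups did not overlap, and the difference of -0.50 ± 0.31 (SE) came from combined 1 and 2. Smpd3, a neutral sphingomyelinase that releases ceramide, was the member of this list at an unadjusted p under 0.05 and read 8.03, 6.93 and 6.87 against 6.90, 5.68 and 6.89. Its groups overlapped, and the difference was 0.98 ± 0.43. Sptlc1, a subunit of the first enzyme of sphingolipid synthesis, differed by -0.42 ± 0.23 and Smpd2, another sphingomyelinase, by -0.25 ± 0.19. S1pr1, the receptor that tightens the barrier, lay highest at 12.48 on the array labelled simvastatin 2 and at 10.02 to 11.46 on the other 5. Sphk1, the kinase that makes S1P, stayed between 7.82 and 8.25.

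Endothelial identity and barrier genes lay lower in the combined group for 22 of 25 members (50.9% of all genes did), and 0 passed. Their median difference was -0.30, beside -0.005 over all genes, and 2 of the 25 had arrays that did not overlap on the low side, beside 4.68% of all genes. Tek, the angiopoietin receptor, read 11.74, 12.25 and 12.96 on the combined arrays and 12.80 to 13.08 on the simvastatin arrays, a difference of -0.60 ± 0.47 (SE). Combined 1 and 2 were the low arrays, and the array labelled combined 3 lay inside the simvastatin range. Pecam1, an adhesion molecule of endothelial junctions, read 11.53, 12.22 and 11.75 against 11.85, 12.94 and 11.79, a difference of -0.55 ± 0.45 that was 0.01 without simvastatin 2. Egfl7, a secreted endothelial factor, differed by -0.41 ± 0.36, and Thbd, the anticoagulant receptor thrombomodulin, by -0.30 ± 0.22. In whole lung, fewer cells of a type and less RNA per cell cannot be told apart. Summed on the linear scale, the 25 genes reached 120000 and 142000 intensity units on combined 1 and 2 and 164000 to 170000 on the other 4 arrays. The same 2 arrays were high in muscle and squamous markers, as described further on, and the part of these markers in this difference was not tested.

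Coagulation, matrix and inflammatory genes gave medians near 0. The 11 coagulation and fibrinolysis genes had a median of -0.02, but their mean level divided the arrays across the labels. Relative to all 12 arrays it was 0.672 and 0.487 on combined 1 and 2 and 0.374 on the array labelled simvastatin 2. It was -0.704 to -0.672 on the 3 near-identical arrays. Within this list Serpinb2, an inhibitor of plasminogen activators, stood apart at 9.38 and 8.81 on combined 1 and 2. It read 4.86 on the array labelled simvastatin 2 and 2.23 to 2.54 on the other 3. F3, the tissue factor that starts clotting, differed by 0.35 ± 0.23 (SE). Of 24 extracellular matrix genes, 12 were above 0, with a median of -0.01. Eln, elastin, read 10.26, 10.35 and 11.64 on the combined arrays and 11.66, 11.25 and 11.63 on the simvastatin arrays, a difference of -0.70 ± 0.47. Lum, the proteoglycan lumican, differed by 1.24 ± 0.88. Timp1, an inhibitor of matrix proteases, read 9.99, 6.24 and 5.93 on the combined arrays, which overlapped the simvastatin arrays. Its difference of 1.11 ± 1.30 was -0.19 without combined 1.

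The 19 measured inflammatory mediators had a median of 0.02, which was 0.85 without simvastatin 2. Cxcl13, the chemokine that draws B cells, was the one member at an unadjusted p under 0.05 and read 10.66, 10.38 and 9.33 on the combined arrays and 9.26, 4.45 and 9.30 on the simvastatin arrays. Its difference of 3.26 ± 1.41 (SE) came mainly from the low value of the array labelled simvastatin 2. Il1b, the cytokine interleukin 1 beta, went the other way and was highest, at 11.41, on that same array, against 10.19 and 9.59 on combined 1 and 2 and 8.27 to 8.39 on the other 3. Cxcl10, an interferon-induced chemokine, differed by 1.18 ± 1.03 and Cxcl1, which draws neutrophils, by 0.64 ± 0.63. Of 21 interferon-stimulated genes, 17 were above 0 with a median of 0.15, and Mx1, an antiviral GTPase, differed by 1.78 ± 1.14.

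Stress and growth genes gave 0 calls at the adjusted threshold. Of 17 Nrf2 target genes, 11 were above 0, the median was 0.12 (0.03 with each array centred on its median, and 9 above 0) and 2 were higher at an unadjusted p under 0.05, beside 1.26% of all genes. Gpx2, an epithelial glutathione peroxidase, read 10.73, 10.98 and 10.02 on the combined arrays and 10.06, 9.36 and 10.01 on the simvastatin arrays, a difference of 0.88 ± 0.33 (SE). Me1, which makes NADPH for fat synthesis, read 12.68, 12.57 and 11.07 against 11.05, 10.98 and 11.01, and Nqo1, a quinone reductase, read 7.04, 7.13 and 5.23 against 5.26, 5.50 and 5.19. For Me1 and Nqo1 the array labelled combined 3 stood with the simvastatin arrays.

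Cell cycle and DNA replication genes were above 0 for 18 of 19 members, with a median of 0.57, and 0 had arrays that did not overlap. Mki67, the proliferation marker Ki-67, read 10.95, 9.78 and 8.16 on the combined arrays and 8.19, 9.18 and 8.12 on the simvastatin arrays, a difference of 0.96 ± 1.36 (SE). Combined 1 was highest and the 3 near-identical arrays were lowest. Birc5, which encodes survivin, differed by 1.29 ± 1.52. Of the 20 immediate early and heat shock genes 15 were above 0, with a median of 0.28, and Hspb1, a small heat shock protein, differed by 0.63 ± 0.33.

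The 20 genes of the glucocorticoid and fasting response had a median of 0.11, and 13 were above 0. Pdk4, which spares glucose in fasting, differed by 1.57 ± 0.95 (SE), and Sgk1, a kinase induced by glucocorticoids, by -0.33 ± 0.20. Among 16 circadian clock genes the median was 0.20, and Nr1d1, the clock repressor Rev-erb alpha, read 7.98, 7.82 and 7.18 on the combined arrays and 6.84, 5.28 and 6.86 on the simvastatin arrays. Its groups did not overlap, and the difference was 1.60 ± 0.68, with an unadjusted limma p of 0.0414.

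**Figure D3:**
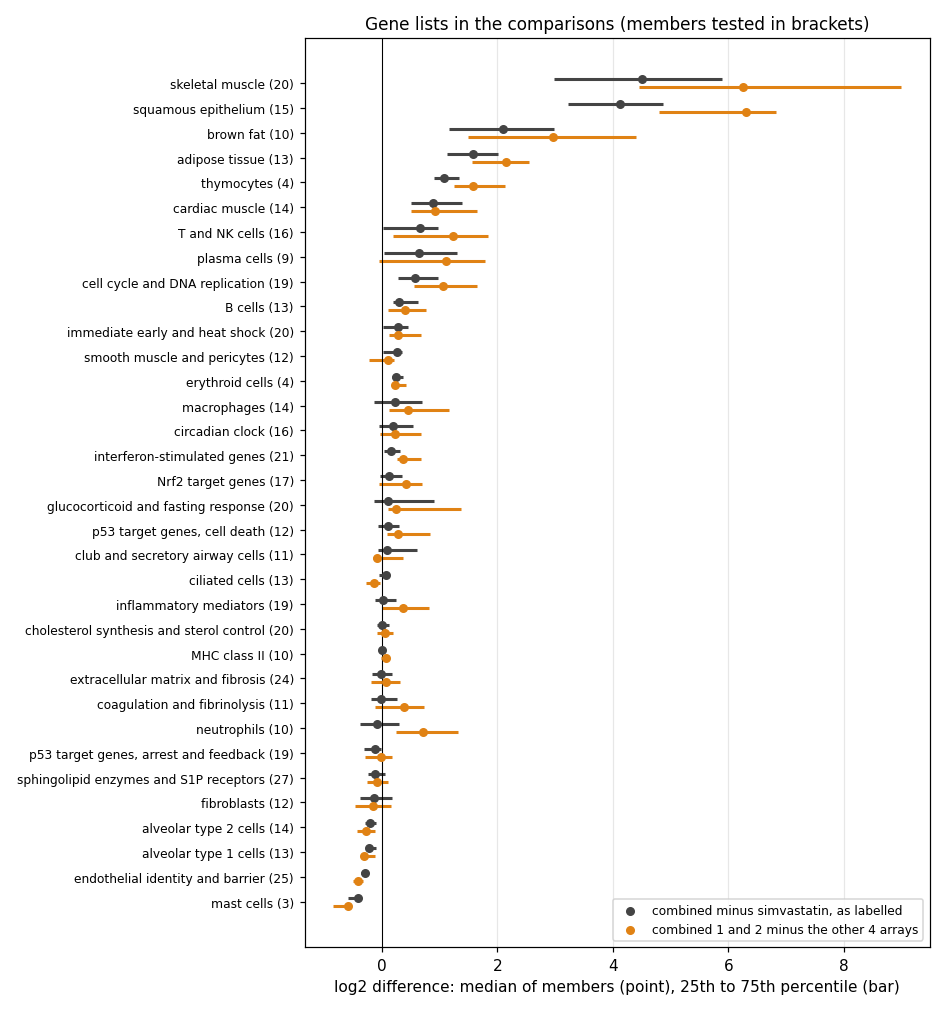
Median log2 difference of the measured members of each gene list (points) with the interquartile range of members (bars), for combined minus simvastatin as labelled (dark) and for combined 1 and 2 minus the other 4 arrays (orange); the list with 1 measured member is not drawn. The medians of skeletal muscle (4.50 and 6.25) and squamous epithelium (4.12 and 6.30) lie farthest from 0, and cell cycle and DNA replication genes lie at 0.57 and 1.06.

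Markers of tissues other than lung alveoli gave the widest gaps. Of 20 skeletal muscle markers measured, 20 were above 0 with a median difference of 4.50, 0 passed the adjusted threshold, 7 had an unadjusted p under 0.05 (1.26% of all genes were higher by that rule) and 9 had arrays that did not overlap (5.01%). Acta1 (Entrez gene 11459), skeletal muscle actin, read 14.90 and 14.61 on combined 1 and 2, 4.90 on the array labelled combined 3 and 4.43, 3.81 and 6.03 on simvastatin 1, 2 and 3. The first 2 arrays stood alone. Ckm, muscle creatine kinase, read 13.05, 12.80 and 8.19 against 8.51, 6.56 and 8.24, and Mybpc1, slow myosin binding protein C, read 9.50, 9.21 and 4.24 against 3.63, 2.88 and 2.58. Eno3, muscle enolase, differed by 2.22 ± 0.82 (SE), and Pgam2, muscle phosphoglycerate mutase, by 2.65 (95% interval 0.41 to 4.90). Summed on the linear scale, the 20 markers reached 117000 and 96800 intensity units on combined 1 and 2, against 1130 to 2210 on the other 4 arrays.

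Squamous epithelium, the lining of organs such as the oesophagus and skin, followed the same arrays. All 15 measured markers were above 0, with a median of 4.12, and 2 had an unadjusted p under 0.05, beside 1.26% of all genes that were higher at that p. Krt4 (Entrez gene 16682), a keratin of moist squamous lining, read 13.77 and 15.50 on combined 1 and 2 and 2.71 to 2.83 on the other 4 arrays. Krt15 read 10.66 and 10.22 against 3.71 to 4.20, and Krt14, a keratin of basal layers, read 10.20 and 9.05 against 2.39 to 2.94. Krt5, the partner of Krt14 and also a gene of basal airway cells, read 11.93 and 11.34 against 5.27 to 5.64. The summed level was 35300 and 151000 units on combined 1 and 2 and 914 to 1700 elsewhere, so it was higher on combined 2.

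Fat markers stood high on combined 1 and 2 as well. Of 10 brown fat markers 9 were above 0, with a median of 2.09. Ucp1, the uncoupling protein that makes heat in brown fat, read 12.58 and 10.49 on combined 1 and 2 and 2.21 to 2.33 on the other 4. The 13 adipose tissue markers were all above 0, with a median of 1.58, and Pparg, the regulator of fat cell identity, read 9.79, 9.10 and 7.61 on the combined arrays against 7.32, 7.13 and 7.42. Their sum was 105000 and 95600 units on combined 1 and 2 and 31900 to 43800 on the rest. Cardiac muscle markers were above 0 for 14 of 14, with a median of 0.88 that was 0.07 without simvastatin 2, since the array labelled simvastatin 2 had a summed level of 36900 units against 82400 to 94500 on the other 5.

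Skeletal muscle and squamous RNA also varied on the arrays without the drug. Acta1 read 13.06 to 14.35 on the control arrays and 5.39 to 13.90 on the radiation arrays, and Krt4 read 8.17 to 15.18 and 2.75 to 13.05. High values of these markers were therefore not confined to irradiated lungs. Whether they bear on the other differences between combined 1 and 2 and the rest was not tested.

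**Figure D4:**
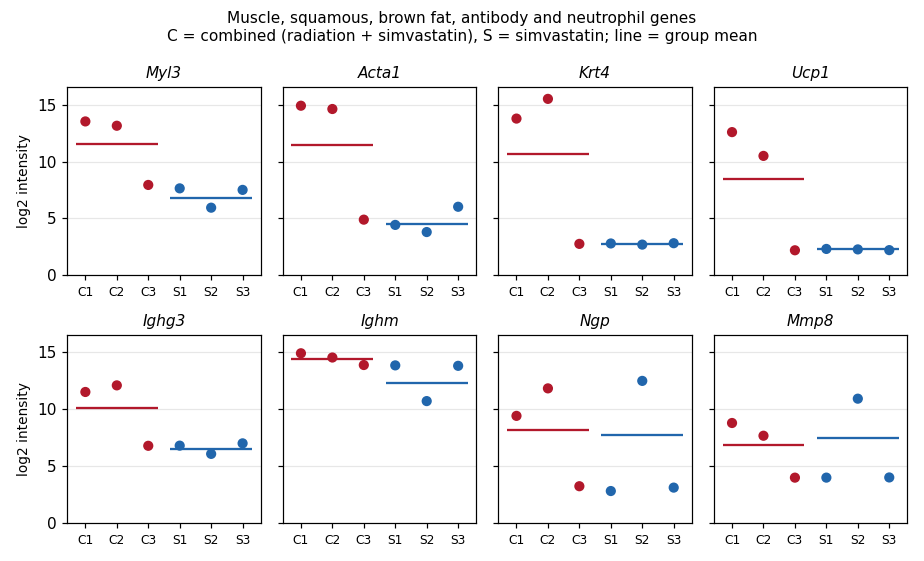
Log2 intensity of muscle (Myl3, Acta1), squamous (Krt4), brown fat (Ucp1), antibody (Ighg3, Ighm) and neutrophil (Ngp, Mmp8) genes on the 6 arrays; points are arrays (C combined, S simvastatin) and lines are group means with S1 and S3 counted once. Acta1, Krt4, Ucp1 and Ighg3 are high on C1 and C2 alone, Ngp and Mmp8 on C1, C2 and S2, and Ighm is lowest on S2 at 10.69.

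Immune markers split the arrays in another way. Of 10 neutrophil markers, 4 were above 0 with a median of -0.08. Ngp, a granule protein of immature neutrophils, read 9.39 and 11.80 on combined 1 and 2 and 12.46 on the array labelled simvastatin 2, but 2.79 to 3.21 on the 3 near-identical arrays. Mmp8, the neutrophil collagenase, read 8.76, 7.64 and 10.90 on the first 3 and 3.96 to 3.98 on the near-identical ones. This is the same division of arrays as for Cdkn1a and Eda2r. The summed neutrophil level was 55500 and 52400 units on combined 1 and 2, 96800 on the array labelled simvastatin 2 and 15700 to 16700 on the others, and its part in the p53 target levels was not tested.

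Genes of the antibody response were lowest on the array labelled simvastatin 2. Ighm, the heavy chain of IgM, read 14.88, 14.51 and 13.85 on the combined arrays and 13.82, 10.69 and 13.78 on the simvastatin arrays, a difference of 2.17 ± 0.98 (SE). Jchain, which joins IgM and IgA chains, read 13.86, 13.33 and 12.48 against 12.35, 8.80 and 12.38. The groups did not overlap for Ighm or Jchain, but the array labelled combined 3 lay close to simvastatin 1 and 3. Of 13 B cell markers 11 were above 0 with a median of 0.29. Ighm was higher on combined 1 than on combined 2, but only 2 of the 13 B cell markers were. Relative to all 12 arrays, the mean B cell level was 0.062 on combined 1 and 1.094 on combined 2. It was 0.488 and 0.32 on simvastatin 1 and 3, so combined 1 lay below these. Of 9 plasma cell markers 7 were above 0, with a median of 0.65. Of these 9, 2 were higher at an unadjusted p under 0.05, beside 1.26% of all genes.

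T and NK cell markers had a median of 0.66, with 12 of 16 above 0. Cd5, a T cell surface receptor, read 6.91 and 6.21 on combined 1 and 2 and 2.21 to 3.70 on the other 4, while Klrd1, an NK cell receptor subunit, read 7.99 on combined 1 and 8.62 to 8.86 on the other 5. Of 14 macrophage markers 8 were above 0, with a median of 0.23. Marco, a scavenger receptor of alveolar macrophages, was 2.29 on the array labelled simvastatin 2 and 6.54 to 8.09 on the other 5, and C1qb, a complement subunit made by macrophages, differed by 0.95 ± 0.55 (SE).

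Markers of resident lung cells differed by little. Alveolar type 1 markers lay below 0 for 12 of 13 members with a median of -0.22, and alveolar type 2 markers for 12 of 14 with a median of -0.21. Cav1, the caveolin of type 1 and endothelial cells, read 14.13, 14.26 and 14.45 on the combined arrays and 14.52, 14.53 and 14.50 on the simvastatin arrays. The groups did not overlap, and the difference was -0.24 ± 0.17 (SE). Lpcat1, which makes surfactant lipid, differed by -0.37 ± 0.30. Club cell markers had a median of 0.09, ciliated cell markers 0.08, fibroblast markers -0.14 and smooth muscle markers 0.27. The ciliated and club genes were lowest on the array labelled simvastatin 2, as for Muc5b, an airway mucin, at 7.98 there and 9.89 to 11.28 on the other 5.

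**Figure D5:**
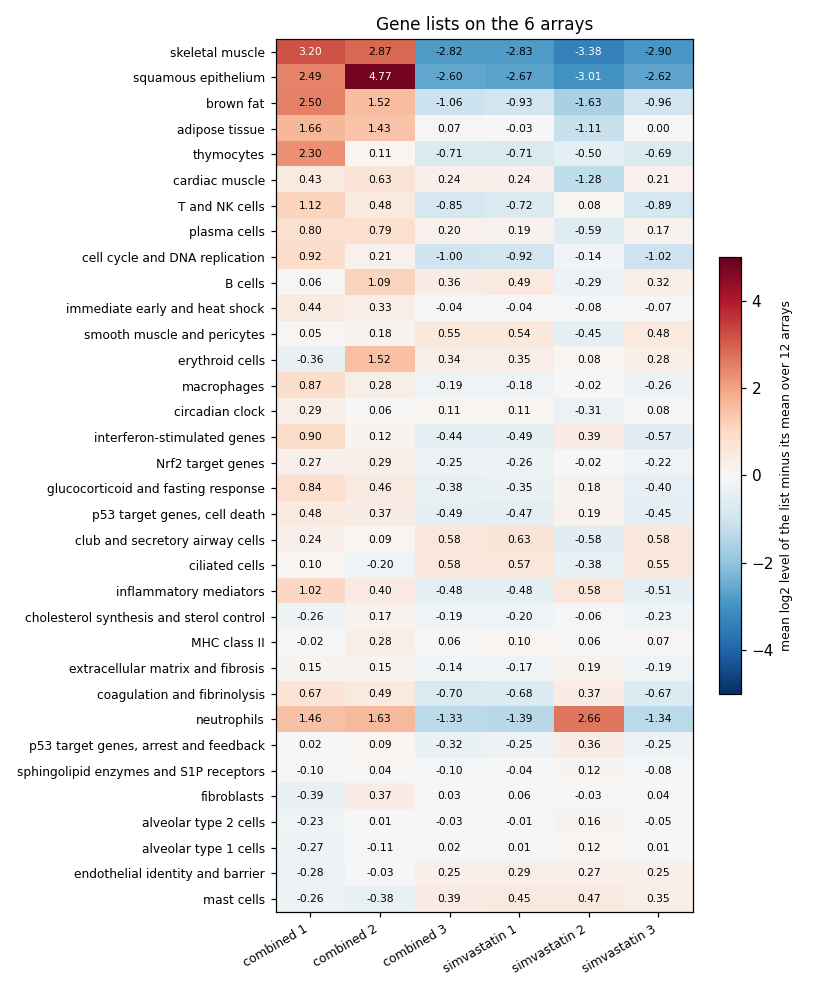
Mean log2 level of each gene list with more than 1 measured member on the 6 arrays, minus the list's mean over all 12 arrays of the series, as colour and printed value. Skeletal muscle is 3.20 and 2.87 on combined 1 and 2, and neutrophil genes are highest, at 2.66, on simvastatin 2.

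Combined 1 and 2 were then compared with the other arrays, since combined 3 resembled simvastatin 1 and 3. In the first version combined 3 was left out, and in the second it was averaged with simvastatin 1 and 3 into 1 sample beside simvastatin 2. The second version crosses a label and compares arrays, not treatments. Both share arrays with the labelled comparison and are not independent of it. Without combined 3, limma called 0 of 11602 genes (0.0%), with 572 at an unadjusted p under 0.05 (4.93%) and a lowest adjusted p of 0.26. Against the other 4 arrays it called 0 (0.0%), with 567 (4.89%) and a lowest adjusted p of 0.258. Of the 567, 490 (4.22%) were higher on combined 1 and 2 and 77 (0.664%) were lower.

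The 10 genes of lowest p against the other 4 arrays were again all higher. Fbp2 read 6.74 and 7.36 on combined 1 and 2 and 3.44 to 4.40 on the other 4, a difference of 3.19 ± 0.46 (SE). Sim2, a transcription factor of the bHLH-PAS family, read 8.32 and 8.09 against 2.46 to 2.51, and Casq1, the calcium store protein of fast muscle, read 9.99 and 8.67 against 4.59 to 4.63. Mypn, the sarcomere protein myopalladin, differed by 3.82 ± 0.64 and Myl3 by 6.51 ± 1.10. Each had a limma adjusted p of 0.258, so 0 of them passed.

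Metabolic genes were also among the 10. Aldoa, the aldolase of glycolysis in muscle and most cells, read 14.18 and 13.93 on combined 1 and 2 and 12.68 to 12.79 on the other 4, a difference of 1.33 ± 0.21 (SE). Acly, which makes acetyl-CoA for fat and sterol synthesis, read 13.59 and 13.44 against 12.31 to 12.54, a difference of 1.08 ± 0.17. Nrg4, a growth factor released by brown fat, read 7.95 and 6.80 against 2.56 to 2.83, and Rnf152, a ubiquitin ligase, read 6.79 and 6.61 against 4.64 to 5.04. Ighg3 (Entrez gene 380795), the heavy chain of IgG3, read 11.49 and 12.07 against 6.05 to 6.98, a difference of 5.33 ± 0.87. Unlike Ighm, it was low on all 4 other arrays. These 5 genes had the same adjusted p of 0.258.

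In this comparison skeletal muscle markers had a median difference of 6.25 and 17 of 20 were higher at an unadjusted p under 0.05, beside 4.22% of all genes. Squamous markers had a median of 6.30 with 11 of 15, and brown fat markers 2.97 with 7 of 10. All 13 adipose markers and all 15 squamous markers lay apart from the other 4 arrays on the high side, as did 16.3% of all genes. A marker under the filter cut of 4.85 on these 4 arrays, as Krt4 was, was measured only because it exceeded the cut elsewhere. Combined 1 and 2 are among the arrays through which it could pass. The filter thus favours high counts for such markers, here and as labelled, and the share of all genes does not correct for this. Cell cycle genes were above 0 for 19 of 19 members (47.3% of all genes were) with a median of 1.06, and 15 of them lay apart, but 0 had an unadjusted p under 0.05.

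On the low side, 14 of 25 endothelial genes lay apart from the other 4 arrays, beside 18.2% of all genes, with a median of -0.41 and 0 at an unadjusted p under 0.05. Alveolar type 1 markers lay apart for 8 of 13 and type 2 markers for 7 of 14, with medians of -0.31 and -0.28. Centring each array on its median moved the median of all genes in this comparison by -0.11. It also moved the endothelial, type 1 and type 2 medians farther below 0, to -0.525, -0.421 and -0.392. The size of these small shifts thus depends on the scale. S1pr3 differed by -0.70 ± 0.31 (SE), with an unadjusted limma p of 0.0482 and an adjusted p of 1.0. p53 arrest and feedback genes had a median of -0.01 and cell death genes 0.28. Cdkn1a differed by 0.94 ± 0.91, with the array labelled simvastatin 2 on the other side.

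Combined 1 and 2 were not alike in every tissue marker. Of 11602 genes, 200 were higher on combined 1 and 253 were higher on combined 2 by more than 1 on the log2 scale, 3.9% in all. The 10 largest gaps were all higher on combined 2. Sprr3, a small proline-rich envelope protein, read 2.82 on combined 1 and 12.69 on combined 2. Dsc1, a desmosomal cadherin of upper epidermis, read 2.77 and 10.69, and Lce3c, a late cornified envelope protein, read 4.45 and 12.15. Kprp, a keratinocyte proline-rich protein, read 1.80 and 9.32, and 1.79 to 1.81 on the other 4 arrays. On the other 4 arrays Sprr3 lay between 2.17 and 2.21 and Dsc1 between 2.33 and 2.40. Combined 1 had more of Cd8b1, a chain of the CD8 receptor of thymocytes and cytotoxic T cells, at 8.90 against 5.62.

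The array labelled simvastatin 2 differed from simvastatin 1 and 3 by more than 1 for 1204 genes, 10.4%, with 478 higher and 726 lower. By contrast, the array labelled combined 3 differed from simvastatin 1 and 3 by that much for 8 genes, 0.069%. The 10 widest gaps of simvastatin 2 ran in both directions. Camp, an antimicrobial peptide of granules, read 9.91 against 3.23 and 3.24, and Clec4e, a receptor for microbial lipids, read 9.36 against 2.07 and 2.37. In the other direction, Fcna, a lectin of macrophages, read 2.35 against 7.73 and 7.63. Lgals2, a galectin, was low at 3.16 on the array labelled simvastatin 2 and also at 3.19 and 3.17 on combined 1 and 2, while the 3 near-identical arrays read 7.85 to 8.30. Lgals2 thus mirrored Cdkn1a in its division of the 6 arrays. Its labelled difference was -0.65 ± 1.85 (SE), and limma did not call it.

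Whether the radiation effect differed with simvastatin was tested as an interaction with all 12 arrays. The controls were 8 to 10 weeks old by the labels and the other groups 8 to 12 weeks, so age and treatment cannot be told apart on the side without the drug. The array labelled control 3 also read 13.01 for Cdkn1a, beside 10.24 and 10.69 on the other controls. limma called 0 of 11602 genes (0.0%), with 377 at an unadjusted p under 0.05 (3.25%), 218 above 0 (1.88%) and 159 below (1.37%), and a lowest adjusted p of 0.882. Cdkn1a differed by 1.99 ± 0.83 (SE) between radiation and control and by 0.28 ± 0.92 between combined and simvastatin, an interaction of -1.71 ± 1.24 with an adjusted p of 0.882. For Eda2r the 2 differences were 3.30 ± 1.32 and 0.21 ± 1.48.

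The lists behaved unequally in the interaction. The glucocorticoid and fasting genes had a median of -0.86, with 6 of 20 below 0 at an unadjusted p under 0.05, beside 1.37% of all genes. Their median was 1.14 between radiation and control, where 12 of 20 were higher at that p (4.21% of all genes). It was 0.11 between combined and simvastatin, where 0 were. Their mean level relative to all 12 arrays was 0.837 and 0.456 on combined 1 and 2, beside 0.384 to 0.768 on the radiation arrays. It was -0.38 on the array labelled combined 3 and 0.181 on the array labelled simvastatin 2, and both pull the labelled difference down. On control 1, 2 and 3 it was -0.965, -0.899 and -0.177. Cdkn1a and Ddit4 are also in the p53 list of arrest and feedback. Sgk1 differed by 0.61 ± 0.18 (SE) without the drug and by -0.33 ± 0.20 with it, an interaction of -0.94 ± 0.27 and an adjusted p of 0.882. Endothelial genes had medians of 0.35 without the drug and -0.30 with it. Skeletal muscle markers had medians of -1.85 and 4.50, and 14 of 20 were above 0 at an unadjusted p under 0.05 in the interaction, beside 1.88% of all genes. The -1.85 leaned on the array labelled radiation 3, where the mean muscle level was -3.07 relative to all 12 arrays. That level was 2.15 and 1.15 on radiation 1 and 2 and 1.30 to 2.22 on the controls. The mean endothelial level was -0.925 on control 1, -0.335 to 0.419 on control 2 and 3, and -0.17 to 0.384 on the radiation arrays. Squamous markers had an interaction median of 6.675, with 10 of 15 above 0 at an unadjusted p under 0.05. T and NK cell markers had 2.551 and cell cycle genes 1.829, with 0 at that p in either list. These 2 medians leaned on control 1, where the mean T and NK cell level was 3.678 and the cell cycle level 3.304. On control 2 and 3 these levels were -0.171 and -0.809, and -0.123 and -0.374. Centring moved the median interaction of all genes by -0.36 and the split at an unadjusted p under 0.05 from 218 above and 159 below to 110 and 288.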

How the data were processed

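The 12 arrays hold lung RNA of 4 labelled groups of 3, of which 6 arrays are compared here. The deposited table holds log2 intensities for 45101 probe sets, with array medians of 4.42 to 5.12, and the submitters' processing notes name MAS5 and GCRMA. Their versions are not given in the sources. Leaving out 64 control probe sets, 34945 had 1 gene symbol in the platform annotation, 932 several and 9160 none; 34741 matched RefSeq by Entrez gene. A probe set was kept if it exceeded the median of all values, 4.85, on at least 3 of 12 arrays, and the brightest of the 20073 left stood for its gene, which gave 11602 genes. The number of arrays limits the precision.

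Group means were fitted over all groups with limma 3.58.1 (lmFit, eBayes with a trend; R 4.3.3), with two-sided p-values adjusted by Benjamini and Hochberg over all genes and a threshold of 0.05. Simvastatin 1 and 3 were averaged, which left 11 samples and 7 residual degrees of freedom; the comparisons without combined 3, or with it averaged in, had 10 and 6. Single values were tested by exact permutation over all splits. The script was tested on simulated data. The 35 lists and the members were chosen with earlier results of these data known, and a list's count is over measured members, which had to be bright on some arrays. The genes named are the 10 of lowest p in the labelled comparison and in combined 1 and 2 against the other 4, up to 4 members of lowest p in each list, check genes of radiation, drug and tissue, and the 10 widest gaps inside each group; S1pr1, Sphk1 and Il1b were named after their values were seen. Alternatives varied the samples, scaling, filter, floor, probe sets, variance model, array weights, block and each array left out.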

Additional observations from a re-analysis of the deposited data

How the results depend on the processing

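The labelled comparison called 0 genes under every alternative run, including each array left out. Of the comparisons that set combined 1 and 2 apart, the one without combined 3 called 15 genes with array weights, 9 with no filter on low values and 43 with only the 2 groups fitted, and 0 to 33 with an array left out, 33 without radiation 3. Against the other 4 arrays the counts were 63 with 12 arrays as 12 samples, 16, 9 and 44, and 0 to 32 with an array left out, 32 without radiation 3. All these calls were higher on combined 1 and 2, and 13 of the 43, 13 of the 44, 14 of the 33 and 14 of the 32 were skeletal muscle markers. In the other settings these markers were 9 of the 63, 1 of the 15, 1 of the 16 and 0 of the 9 in either comparison. The list holds 20 of the 11602 genes tested in the main fit. The interaction called 0 to 1 with an array left out, Aoc1 without control 3; it could not be run on only the 2 groups. The cause was not tested.

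With each array centred on its median, the mean of the p53 lists turned from 0.024 to -0.061 and the mean of the cholesterol list from 0.042 to -0.042. With an array left out, Cdkn1a ran from -0.057 to 1.409, the mean of the p53 lists from -0.074 to 0.337 and the mean of the cholesterol list from -0.09 to 0.127; Apaf1 ran from -0.551 to 0.055 and Pecam1 from -0.744 to 0.011, each above 0 only without simvastatin 2. Against the other 4 arrays Timp1 ran from -0.097 to 3.65, below 0 without combined 1, and Kprp from -0.002 to 7.53, at -0.002 without combined 2; Kprp as labelled ran from -0.0 to 3.76, again with the low end without combined 2. Centring turned the medians of the MHC class II, ciliated cell and inflammatory lists in the labelled comparison to -0.08, -0.01 and -0.06. The labelled count at an unadjusted p under 0.05 was 764 with array weights, 90 with centring, 90 with only the 2 groups and 275 with 12 samples. Same-numbered arrays had correlations of deviations of -0.26, 0.28 and 0.37, and differently numbered arrays had -0.395 to 0.372. The near-identical arrays enter both sets of values, so they cannot decide whether the replicate numbers pair the arrays. The replicate block left 0 genes called and 362 at an unadjusted p under 0.05.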

Other observations

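Markers of a few other lists gave values outside the comparisons above. Erythroid genes had 4 of 13 members measured and were highest on combined 2. There Alas2, the first enzyme of haem synthesis in red cell precursors, read 11.43 against 8.18 on combined 1 and 9.33 to 9.95 on the other 4 arrays. The thymocyte list had 4 of 11 members measured, Cd8a, Cd8b1, Cd1d1 and Satb1, while Rag1, Rag2, Dntt and Ptcra did not pass the filter. These 4 genes cannot identify thymocytes. Of the 6 arrays their mean level was highest on combined 1. There Satb1, a chromatin organiser of developing T cells, read 12.15, and the other 5 arrays read 9.64 to 9.99. Mast cell genes had 3 of 10 members measured, and Kit, the stem cell factor receptor, read 10.31 and 10.67 on combined 1 and 2 and 11.39 to 11.70 on the other 4. MHC class II genes had a median difference of 0.01 between combined and simvastatin, and Cd74, the invariant chain, stayed between 13.66 and 13.97. The thyroid and parathyroid list had 1 member measured, Slc26a4, at 3.51 to 6.30.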
